A study of Mus musculus with 96 samples.

Results

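The epithelial-mesenchymal identity genes described here are 10 genes that separate epithelial from mesenchymal cells: Vim, Cdh2, Cdh1, Epcam, Krt8, Krt18, Zeb1, Zeb2, Snai1 and Snai2. They were chosen by name out of 40202 genes in each count file. The rule names the genes without using their values, but they were chosen with earlier results of these data known. RNA was sequenced from single C10 cells, a line from mouse lung described in the labels as alveolar type II epithelial. The control group was 48 cells with no treatment, and no vehicle is named for it. The other group was 48 cells of the same line given RO-3306, marketed to inhibit the mitotic kinase CDK1, for 36 h at a labelled dose of 10 nM. Cells were dispensed singly by a CellenONE instrument, amplified with SMART-seq v4 and read as single reads of 150 nt. The labels name no separate cultures, so each treatment is 1 sample of many cells. No p-value was therefore computed, and differences between the groups have no replicate check.

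Epithelial cells are joined to their neighbours by E-cadherin and by the adhesion protein EpCAM, and their cytoplasm carries keratin filaments built from paired keratins such as keratin 8 and keratin 18. Mesenchymal cells carry vimentin filaments and often N-cadherin instead. In epithelial-mesenchymal transition, the zinc finger repressors of the Snail family (Snai1, Snai2) and the ZEB family (Zeb1, Zeb2) bind E-box motifs in epithelial promoters, Cdh1 foremost, and shut these genes off. In the lung, alveolar type II cells are epithelial, make surfactant and carry keratin 8 and keratin 18.

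A minimum of 50000 counts and 1000 genes per cell left 29 control and 37 RO-3306 cells with totals of 59979 to 6457215 and 295005 to 5321880 counts. The median total was 1753427 and 2234309 counts. Each title has a letter, A, B, C or D, that is not explained. The 4 lettered sets served only to compare signs. Shares of cells with a count were also taken after each cell had been thinned to 639000 reads, which left 25 control and 34 RO-3306 cells. At that depth the median cell had 4567 genes in control and 5965.5 in RO-3306. Of 11 alveolar type II markers, 6 had no count in any kept cell: Sftpa1, Sftpc, Sftpd, Slc34a2, Napsa and Nkx2-1. However, 47.8% of the Napsa span overlaps another gene, where reads were not counted. Other markers had counts: Lpcat1 in 7 of 29 control and 17 of 37 RO-3306 cells, and Abca3 in 7 and 12. Etv5 was in 13 and 11 cells, Lamp3 in 8 and 7, and Sftpb in 0 and 1.

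In both groups the mesenchymal genes were the abundant ones of the 10. Vim was in every kept cell, Cdh2 and the Snail genes in many, and the 4 epithelial genes (Cdh1, Epcam, Krt8, Krt18) were at or near 0. Between the groups, Vim was 1.92-fold lower in RO-3306 cells (95% counting interval of the ratio RO-3306 over control 0.517 to 0.525). Snai2 was in a larger share of RO-3306 cells than of control cells, and the epithelial genes stayed near 0 in both groups. Values are counts per 1000000 counts (CPM), pooled over the kept cells of a group, with exact Poisson intervals that cover counting error only. The log2 ratio is RO-3306 over control after adding 1 CPM to both. None of the 10 genes differed by 2-fold or more with the same sign in all 4 lettered sets at a mean of at least 5 CPM, a level that 5 of the 10 reached. Of all 9374 genes at that level, 6.43% were lower and 7.23% were higher by this rule, and their median log2 ratio was -0.22.

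Divided by mRNA length, Vim stood far above the rest in control cells, at 1107 CPM per kb, followed by Snai2 at 74.6, Cdh2 at 11.3, Zeb2 at 4.06, Snai1 at 3.59 and Zeb1 at 1.98 CPM per kb. Among the epithelial genes, Epcam reached 0.119 and Cdh1 0.108 CPM per kb, and Krt8 and Krt18 had no count. In RO-3306 cells the order at the top was the same, with Vim at 576, Snai2 at 98.5 and Cdh2 at 6.15 CPM per kb. Zeb2 and Zeb1 followed at 4.41 and 4.40, Snai1 at 2.47, Krt8 at 0.237 and Cdh1 at 0.0468 CPM per kb. This is the order of pooled levels. Counts took in introns, which the mRNA length leaves out: the gene span was 220370 bases for Cdh2 and 3544 for Snai2. The order is therefore not one of mRNA level alone. Single cells departed from it: control cell C2 had 451 CPM of Cdh2 and no Snai2, and 13 of 29 control cells had no Snai2. The heat map shows the 66 kept cells one by one.

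**Figure D1:**
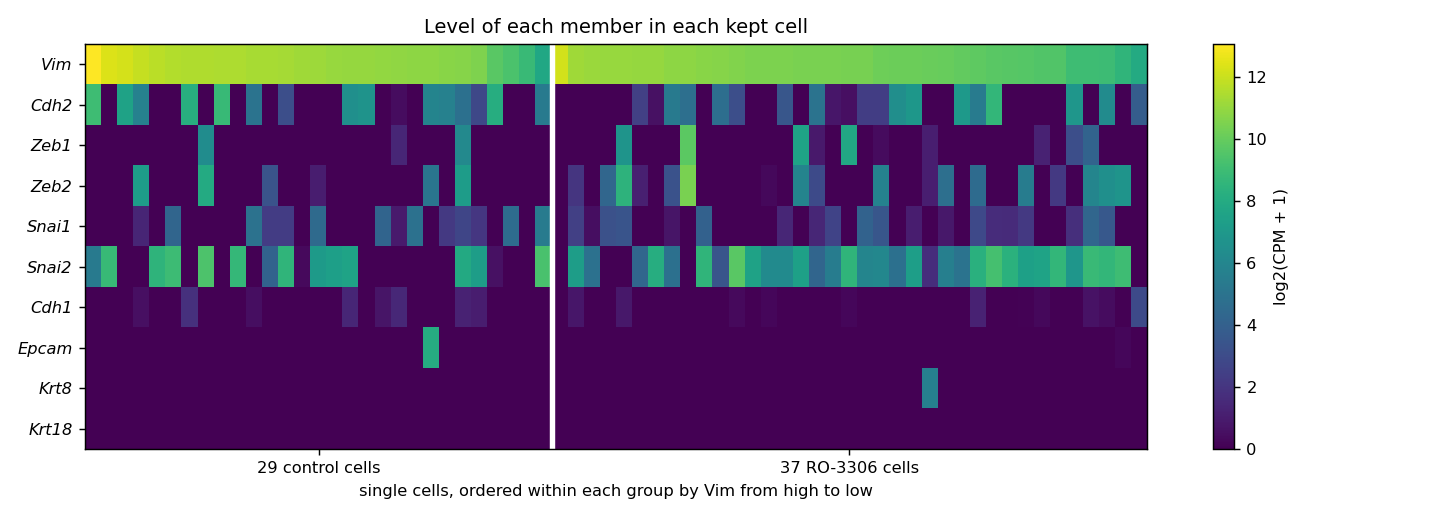
Level of each of the 10 genes (rows) in each kept cell (columns), as log2(CPM + 1), with the 29 control cells on the left and the 37 RO-3306 cells on the right, each ordered by Vim. Vim is coloured in every cell, Cdh2 and the 4 repressors are scattered over many cells, and Epcam and Krt8 each have a single cell with a visible level.

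Vim encodes vimentin, the intermediate filament protein of mesenchymal cells. The gene lies on chr2:13579122-13587637 of GRCm39 (plus strand). Over the 29 control cells its level had a lowest value of 218, a median of 2278 and a highest value of 8580 CPM. Over the 37 RO-3306 cells the lowest value was 251, the median 1336 and the highest 4643 CPM. The ranges overlapped, but the bulk of the groups did not: 25 of 29 control cells lay above the RO-3306 median, 2 of 37 RO-3306 cells lay above the control median, and 29 of 37 lay under the lower quartile of control cells, 1834 CPM. Without title letter C, whose control cells had the highest Vim, the share of RO-3306 cells above the control median went from 5.41% to 19.2%. Pooled, Vim was at 2427 CPM (2415 to 2439) in control cells and 1264 CPM (1257 to 1272) in treated cells, a log2 ratio of -0.94. It ranked 21 among all genes in control and 87 in RO-3306.

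The lower Vim level appeared in each lettered set, by a larger amount in C and D than in A and B. In set A the pooled level was 2097 CPM in control cells and 1501 CPM in treated cells (log2 ratio -0.48), and in set B it was 2055 and 1477 CPM (-0.48). In set C it was 3951 and 1159 CPM (-1.77), and in set D 3174 and 1003 CPM (-1.66). Control levels thus ran from 2055 to 3951 CPM over the sets, and those of treated cells from 1003 to 1501 CPM. Leaving out each of the 66 cells in turn kept the Vim ratio between -0.99 and -0.85. Of all 9374 genes, 10.3% were lower in all 4 sets, and 6.82% were also at least as far below control as Vim. The coefficient of variation of Vim over cells was 0.637 in control and 0.571 in RO-3306.

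Within a group, Vim did not track the depth of the cell: its Spearman correlation with total counts was 0.04 over 29 control cells and -0.18 over 37 RO-3306 cells. The gene whose level was most like that of Vim over the thinned cells was Ncl, the nucleolar protein nucleolin, with a mean Spearman correlation of 0.44 (0.51 in 25 control cells, 0.38 in 34 RO-3306 cells). Cct4, a subunit of the chaperonin that folds actin and tubulin, followed at 0.44, and Psmd4, a ubiquitin receptor of the proteasome, at 0.43. These are the top of 3551 genes, whose correlations with Vim had a median of -0.04 and a 95th percentile of 0.20. Of the other mesenchymal genes, Col1a1 ranked 52 at 0.28, above that percentile, Col3a1 ranked 190 at 0.20, Sparc 361 at 0.14 and Lox 3209 at -0.22. Acta2, smooth muscle actin, ranked 3549 of 3551, at -0.38 in control and -0.56 in RO-3306 cells. All levels of a cell share 1 library and a fixed total of reads, so these correlations are a description.

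Cdh2 encodes N-cadherin, the cadherin of mesenchymal and neural cells, and lies on chr18:16721934-16942303 (minus strand). It had a count in 16 of 29 control and 20 of 37 RO-3306 cells. Over control cells the median was 6.24 and the highest level 511 CPM, and over RO-3306 cells the median was 0.48 and the highest level 403 CPM. Both groups thus held cells without a count and cells with a high level, and their ranges overlapped. The pooled level was 54.9 CPM (53.1 to 56.7) in control cells and 29.8 CPM (28.7 to 30.9) in treated cells, a log2 ratio of -0.86. The sign was not shared by the sets: the ratio was -2.21 in A, -2.00 in C and -2.53 in D but 2.08 in B, where Cdh2 was found in 2 of 8 control and 7 of 10 treated cells. In set D all 5 control cells had Cdh2, against 3 of 6 RO-3306 cells.

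Few cells set the Cdh2 ratio. It was -1.27 without cell C7 of RO-3306 and -0.56 without cell C1 of control, which also had the highest Vim of all cells. After subtracting the median ratio of genes of like mRNA length, a step added after the data had been seen, Cdh2 stood at -0.25 and Vim at -0.75. At equal depth Cdh2 was in 14 of 25 control cells (56%, exact 95% interval 34.9% to 75.6%) and 16 of 34 RO-3306 cells (47.1%, 29.8% to 64.9%), intervals that overlap widely.

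**Figure D2:**
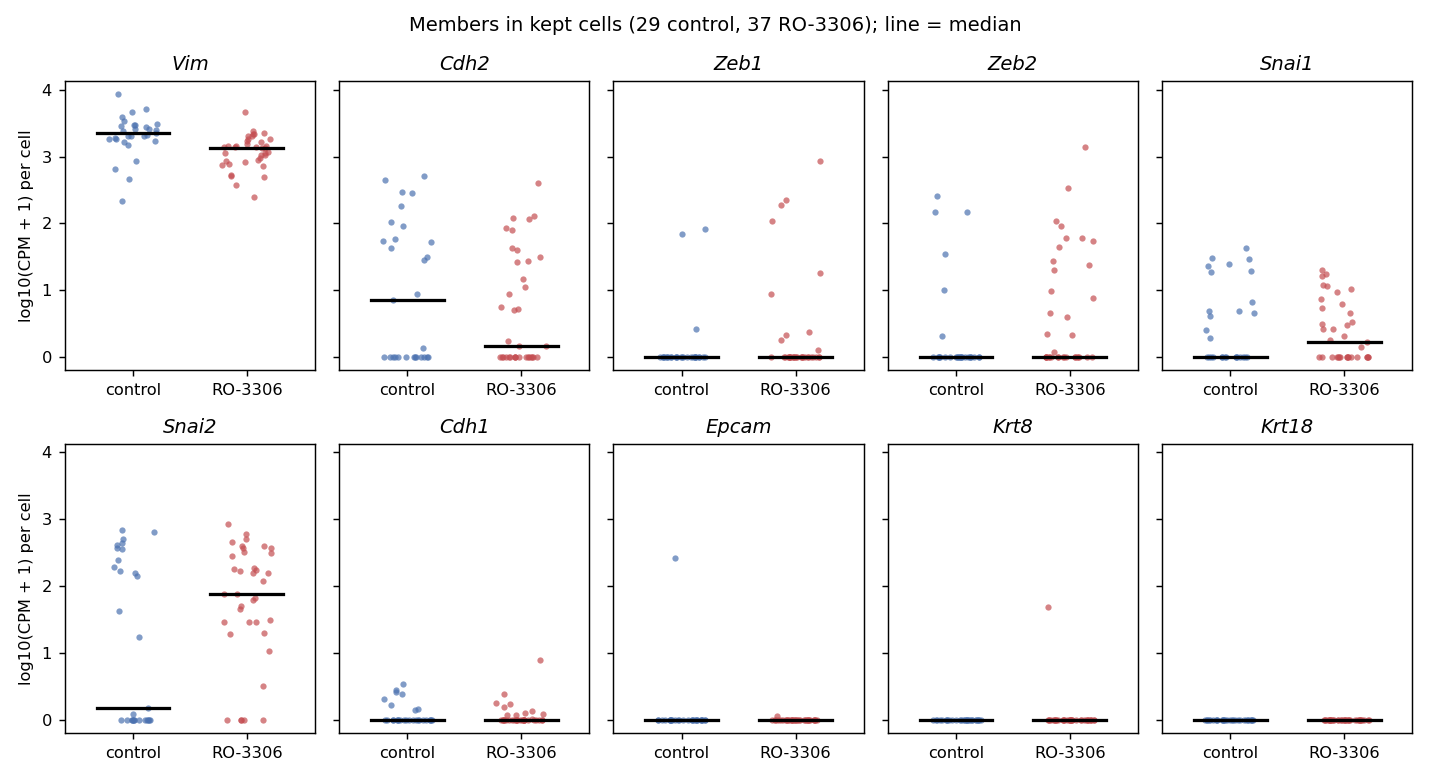
CPM of each gene per kept cell on a scale of log10(CPM + 1), 1 point per cell and a line at the median, with 29 control cells in blue and 37 RO-3306 cells in red. Vim has medians of 2278 and 1336 CPM, the Snai2 medians are 0.519 and 75.1 CPM, and the lower row shows Krt18 at 0 in all cells.

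The 4 repressors of the Snail and ZEB families were present in both groups and together were higher in RO-3306, at 269 CPM (265 to 272) against 205 CPM (202 to 209) in control, a log2 ratio of 0.39. Most of this sum was Snai2. The ratio was 0.071 without title letter D. At equal depth at least 1 of the 4 had a count in 18 of 25 control cells (72%, 50.6% to 87.9%) and 33 of 34 RO-3306 cells (97.1%, 84.7% to 99.9%). Among control cells, 7 had none, 10 had 1, 5 had 2, 2 had 3 and 1 had all 4. Among RO-3306 cells, 1 had none, 12 had 1, 11 had 2, 8 had 3 and 2 had all 4. RO-3306 cells also had more genes with a count overall at this depth, as given above, and the part of that in the number of repressors per cell was not tested.

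Snai2, which encodes the repressor Slug, lies on chr16:14523716-14527259 (plus strand) and differed most in how many cells had it. It was in 16 of 29 control cells (55.2%, 35.7% to 73.6%) and 32 of 37 RO-3306 cells (86.5%, 71.2% to 95.5%). At equal depth these were 12 of 25 (48%, 27.8% to 68.7%) and 32 of 34 (94.1%, 80.3% to 99.3%). The intervals overlap slightly at full depth and do not overlap at equal depth. They treat the cells of 1 sample as separate draws, so they do not measure a spread between cultures. At full depth the share was higher in RO-3306 in each lettered set. It was 5 of 10 against 8 of 10 in A and 6 of 8 against 9 of 10 in B. In C it was 4 of 6 against 10 of 11, and in D 1 of 5 against 5 of 6. The difference at equal depth was 46.1 percentage points. The median over all 9374 genes was 8.94 points, 19.1% of genes were higher by 25 points or more, and 2.68% were as high as Snai2 or higher. Among the 10 genes, Snai2 and Zeb2 passed 25 points.

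Few cells had only faint Snai2 counts at equal depth, though counts can include PCR copies of few molecules. All 12 control cells that had it at equal depth held at least 10 counts of it, as did 30 of the 32 RO-3306 cells. The median control cell was at 0.519 CPM and the highest at 694 CPM. The median RO-3306 cell was at 75.1 CPM and the highest at 840 CPM. Levels over RO-3306 cells were graded, with quartiles of 27.6 and 312 CPM. In cells with a count, the median level was 218 CPM in control cells and 157 CPM in treated cells, so the positive cells of RO-3306 were not higher. The pooled level was 151 CPM (148 to 154) in control cells and 199 CPM (196 to 202) in treated cells, a log2 ratio of 0.40. The pooled level had no shared sign: the ratio was -0.96 in set A, 0.58 in B, -0.42 in C and 4.20 in D, where control was at 12.8 CPM and RO-3306 at 253 CPM. It was 0.75 without cell A1 of control and 0.12 without title letter D. In RO-3306 cells Snai2 was higher in deeper cells (Spearman 0.36 with total counts over 37 cells), and in control cells this correlation was 0.12.

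**Figure D3:**
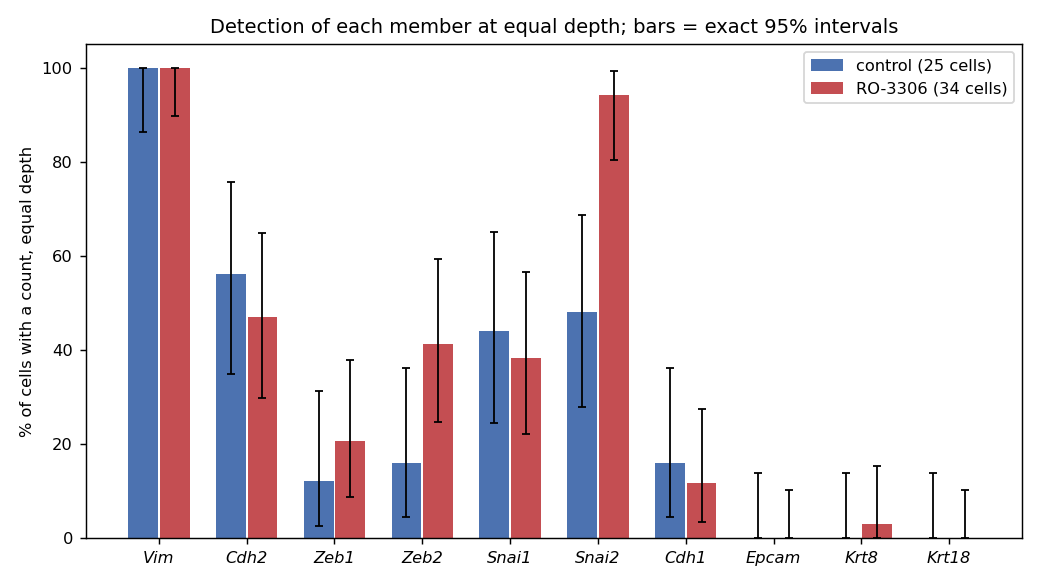
Share of cells with a count of each gene after thinning every cell to 639000 reads, in 25 control (blue) and 34 RO-3306 cells (red), with exact 95% binomial intervals as black lines. Snai2 stands at 48% and 94.1% with intervals that do not overlap, and the intervals of Cdh2, Zeb1, Zeb2, Snai1 and Cdh1 overlap.

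Snai1, the founding Snail repressor and close relative of Snai2, lies on chr2:167380115-167384734 (plus strand) and was far lower. It had a mean of 4.92 CPM, just under the 5 CPM level. A count was found in 14 of 29 control and 20 of 37 RO-3306 cells, with highest levels of 41.7 and 18.9 CPM. The pooled level was 5.82 CPM (5.25 to 6.43) in control cells and 4.01 CPM (3.61 to 4.44) in treated cells, a log2 ratio of -0.45, with a lower level in sets A, B and C and a higher one in D (1.82). At equal depth the shares were 44% (24.4% to 65.1%) and 38.2% (22.2% to 56.4%), intervals that overlap, unlike those of Snai2.

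Zeb2 lies on chr2:44873524-45007454 (minus strand), and 2.26% of its span overlaps the genes Mir5129 and Zeb2os. It had a count in 6 of 29 control cells (20.7%, 7.99% to 39.7%) and 18 of 37 RO-3306 cells (48.6%, 31.9% to 65.6%). At equal depth these were 4 of 25 (16%, 4.54% to 36.1%) and 14 of 34 (41.2%, 24.6% to 59.3%), a difference of 25.2 points with overlapping intervals. As 18.8% of all tested genes differed by that much or more, the wider presence of Zeb2 was near the general level. By set, Zeb2 was in 2 of 10 control and 9 of 10 RO-3306 cells of A, 2 of 8 and 1 of 10 of B, 0 of 6 and 4 of 11 of C, and 2 of 5 and 4 of 6 of D. The pooled level was 37.1 CPM (35.6 to 38.6) in control cells and 40.2 CPM (38.97 to 41.6) in treated cells, a log2 ratio of 0.12. This ratio turned to -0.55 without cell D7 of RO-3306 and to -0.73 without title letter D, and was 0.73 without cell A1 of control, so its direction changed with 1 cell.

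Zeb1 lies on chr18:5591330-5775468 (plus strand) and was the most unevenly spread of the repressors. Only 3 of 29 control cells had it, A1 at 80.5, B4 at 69.6 and A3 at 1.61 CPM, and A1 and B4 gave 98.8% of its control counts. In RO-3306 it was in 10 of 37 cells, with a highest level of 867.8 CPM in A11, while C5 alone gave 50.5% of the counts. The pooled level was 11.5 CPM (10.7 to 12.4) in control cells and 25.5 CPM (24.5 to 26.6) in treated cells, a log2 ratio of 1.09. The sets disagreed, with ratios of 0.98 in A, -4.20 in B, 5.59 in C and 4.498 in D, and Zeb1 had no count in control cells of C and D or in RO-3306 cells of B. The ratio was 0.20 without cell C5 of RO-3306, 2.10 without cell B4 of control and 0.17 without title letter C. At equal depth Zeb1 was in 3 of 25 and 7 of 34 cells, 12% (2.55% to 31.2%) and 20.6% (8.70% to 37.9%).

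Zeb1 and Zeb2 were highest in the same cell within each group, but not all high cells were shared. Control cell A1 had the highest level of both, 80.5 CPM of Zeb1 and 257 CPM of Zeb2, and B4 was next for both, with 69.6 and 150 CPM. Control cell D9 had 147 CPM of Zeb2 and no Zeb1. In RO-3306, cell C5 had the second highest level of Zeb1, 225 CPM, and no Zeb2, while cell A11 had 867.8 CPM of Zeb1 and 1407 CPM of Zeb2. Cell A11 had 515218 counts, 3178 genes and 18.1% mitochondrial counts, against a group median of 4.42%, and no count of Snai2. At equal depth both ZEB genes were found together in 2 of 25 control and 5 of 34 RO-3306 cells, and at least 1 of the pair was found in 5 and 16 cells. Of the 14 RO-3306 cells with Zeb2, 13 also had Snai2, and of the 4 control cells with Zeb2, 3 had Snai2. All 16 RO-3306 cells with Cdh2 also had Snai2, against 5 of 14 control cells with Cdh2. Of all thinned RO-3306 cells, 32 of 34 had Snai2.

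**Figure D4:**
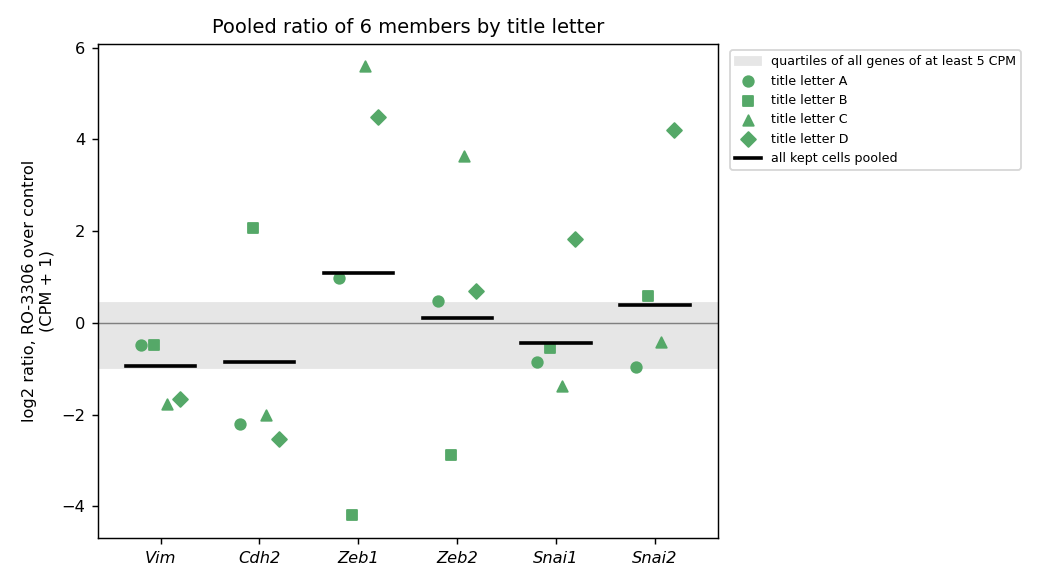
Log2 ratio of RO-3306 over control (CPM + 1, pooled) for 6 genes, with 1 symbol for each title letter and a black bar for all kept cells; the grey band holds the quartiles of all 9374 genes, -0.98 to 0.43. Vim is below 0 in all 4 sets (-0.48 to -1.77), and the other 5 genes have sets on both sides of 0.

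The 4 epithelial genes are known targets or markers of the state that these repressors silence. To show the sequence on which such repressors act, the 250 bases before the start of Epcam, Krt8 and Krt18 are printed with that of Vim for contrast, from RefSeq on GRCm38.p6 and in the direction of the gene. Of the 10 genes, 6 had windows in the promoter table used, and none was available for Cdh1, Cdh2, Zeb1 and Snai2. The E-boxes searched were CACCTG and CAGGTG, which are reverse complements and so cover both strands. Matches are in capitals. Epcam (chr17:87635729-87635978, plus strand) had 2 matches, which began 187 and 19 bases before the start. Krt8 (chr15:102004343-102004592, minus strand) had 1 at 111 bases and Krt18 (chr15:102027966-102028215, plus strand) had 1 at 214 bases. Vim (chr2:13574061-13574310, plus strand) had none. The matches were not limited to epithelial genes: the window of Snai1 (chr2:167537945-167538194, plus strand, not shown) had 1 at 126 bases, and 4 windows of Zeb2 had none. Of 32851 such windows in the table, 17.2% held at least 1 match and 2.06% at least 2, so 1 match is common. A match describes these letters only.
Epcam: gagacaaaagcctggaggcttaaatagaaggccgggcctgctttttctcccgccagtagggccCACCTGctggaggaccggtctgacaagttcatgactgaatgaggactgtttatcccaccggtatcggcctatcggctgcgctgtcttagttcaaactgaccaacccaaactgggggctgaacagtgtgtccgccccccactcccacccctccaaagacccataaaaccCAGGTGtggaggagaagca
Krt8: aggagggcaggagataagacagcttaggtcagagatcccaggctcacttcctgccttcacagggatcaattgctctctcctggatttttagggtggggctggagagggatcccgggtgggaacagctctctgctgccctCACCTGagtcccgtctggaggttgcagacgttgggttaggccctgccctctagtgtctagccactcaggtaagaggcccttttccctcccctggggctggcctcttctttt
Krt18: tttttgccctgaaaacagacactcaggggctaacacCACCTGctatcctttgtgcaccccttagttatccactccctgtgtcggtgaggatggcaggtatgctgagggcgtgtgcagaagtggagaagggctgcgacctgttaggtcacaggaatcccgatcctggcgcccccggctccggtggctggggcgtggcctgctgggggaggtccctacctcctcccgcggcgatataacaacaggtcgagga
Vim: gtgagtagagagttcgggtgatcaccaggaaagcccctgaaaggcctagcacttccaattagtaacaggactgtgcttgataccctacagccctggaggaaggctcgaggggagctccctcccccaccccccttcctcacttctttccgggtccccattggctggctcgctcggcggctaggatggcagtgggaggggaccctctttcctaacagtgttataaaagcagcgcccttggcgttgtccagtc

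Summed, the 4 epithelial genes reached 0.722 CPM (0.536 to 0.964) in control cells and 0.676 CPM (0.522 to 0.868) in treated cells. The intervals of the sums overlap, but single cells weigh heavily in them. Of 62.76 counts in RO-3306, 43 were Krt8 in cell A7, and of 47.65 in control, 16 were Epcam in cell D10. The counting intervals of Cdh1 alone, given below, do not overlap. The overlap of the sums therefore does not show that the groups were alike. Any count of the 4 was found in 9 of 29 control cells (31.03%, 15.3% to 50.8%) and 13 of 37 RO-3306 cells (35.1%, 20.2% to 52.5%). At equal depth it was found in 4 of 25 (16%, 4.54% to 36.1%) and 5 of 34 (14.7%, 4.95% to 31.1%). Any of 5 endothelial genes, which lung epithelial cells are not known for, had a count in 10 of 29 control and 15 of 37 RO-3306 cells. These shares were not lower than those of the 4 epithelial genes. Of the 5, Pecam1 had counts in 7 of 29 and 12 of 37 cells, and at equal depth in 1 of 25 and 0 of 34. Tek was at equal depth in 2 of 25 and 1 of 34 cells. Pecam1 and Tek were the most often seen of 5 endothelial genes. Cdh5 was in 1 of 29 control and 0 of 37 RO-3306 cells, and Cldn5 was in no cell.

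Cdh1, which encodes E-cadherin and is the classic target of the Snail and ZEB repressors, lies on chr8:107329982-107396879 (plus strand). Its counts summed to 31.65 over 8 of 29 control cells and to 19.26 over 11 of 37 RO-3306 cells, or 0.479 CPM (0.331 to 0.684) and 0.207 CPM (0.123 to 0.320), counting intervals that do not overlap. With cells weighted equally the means were 0.339 and 0.311 CPM, and set C, unlike A, B and D, had no Cdh1 count in control. No kept cell had more than 9.95 counts of it, and 5 or more were found in 3 control cells and 1 RO-3306 cell. The counts were in part fractional, from reads with several placements. At equal depth Cdh1 was in 4 of 25 and 4 of 34 cells, and 3 of these 4 control cells and 2 of these 4 RO-3306 cells also had Cdh2. The cadherins were thus found together as well as apart.

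Epcam, the gene of the epithelial adhesion protein EpCAM, lies on chr17:87943407-87958555 (plus strand). It had 16 counts in 1 control cell, D10, where they made 267 CPM because that cell had the fewest counts of all kept cells, 59979. The rest of control had none, and RO-3306 had 0.5 count in 1 cell. Krt8 and Krt18 encode the paired keratins of simple epithelia. Krt8 (chr15:101905146-101912777, minus strand) had no count in control and 43 counts in 1 RO-3306 cell, A7, where it reached 48.2 CPM. That cell had no Krt18 and no Epcam. Krt18 (chr15:101936651-101940461, plus strand) had no count in any of the 66 kept cells. A count of 0 allows up to 0.0454 CPM in control cells and 0.0323 CPM in treated cells, and up to 10.3% and 8.11% of cells with a count. Of the filament genes among the 10, Vim was thus in all kept cells, Krt8 in 1 and Krt18 in none.

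The other genes of epithelial identity were also low when pooled, though single genes differed between the groups. Of 25 further epithelial genes (claudins, desmosomal genes, keratins, and the splicing and transcription factors Esrp1, Esrp2, Grhl2 and Ovol1), none reached a mean of 5 CPM, and 9 had no count in any kept cell, among them Cldn3, Cldn4, Dsp and Elf3. Their sum was 17.9 CPM in control cells and 19.03 CPM in treated cells. The highest of them were Krt7, with no count in control and 9.14 CPM over 5 of 37 RO-3306 cells, Llgl2 at 5.46 and 2.93 CPM in 3 of 29 and 1 of 37 cells, and Esrp2 at 5.16 and 0.797 CPM in 1 cell of each group. Krt7, the keratin of simple epithelia and mesothelium, was seen in sets A, B and C and reached 381 CPM in 1 cell. Lower genes of the list went both ways, such as Cdh3 at 4.56 and 0.0121 CPM and Cgn at 0 and 1.72 CPM. The keratins Krt10 and Krt14 were placed in the list of filament genes below and are not among these 25.

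Vim was not the only mesenchymal gene at a lower level. Of 19 other mesenchymal genes, 14 reached 5 CPM. Of these, 13 were lower in RO-3306 and 1 was higher, where 58.95% of all 9374 genes were lower. In this list 5 passed 2-fold with the same sign in all sets, all lower, and the median log2 ratio was -1.79 against -0.22 for all genes. With a gene length correction added after the data had been seen, that median was -1.31. Sparc, a matricellular glycoprotein, was at 4032 and 1435 CPM (-1.49), and the fibrillar collagen genes Col1a1 and Col3a1 were at 714 and 127 CPM (-2.48) and at 603 and 83.6 CPM (-2.84). Lox, which cross-links collagen, was at 648 and 160 CPM (-2.01), and its relative Loxl2 at 22.3 and 3.40 CPM (-2.40). The Vim ratio of -0.94 was nearer to 0 than those of these 5 genes, while another collagen gene, Col1a2, stood at -0.88. Acta2 (1052 and 837 CPM) and S100a4 (1082 and 974 CPM), a calcium-binding protein of motile cells, lay within 2-fold of control. Tagln, Thy1 and Tnc had no count, and 38.6% of the Tagln span and 43.9% of the Tnc span overlap other genes, whose shared reads the authors' counting left out.

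Among 10 other transcription factors of the transition, 5 reached 5 CPM and all 5 were lower in RO-3306, with a median log2 ratio of -1.29, beside 58.95% of all genes lower. Tcf4, the nearest of them to 0, stood at -0.05. Those past 2-fold with 1 sign were Twist2, a basic helix-loop-helix factor, at 73.7 and 17.4 CPM (-2.02), and its partner Tcf3, which encodes the E proteins E12 and E47, at 146 and 62.6 CPM (-1.21). Foxc1 had a like ratio (64.1 and 15.01 CPM, -2.02) without a shared sign. Prrx1, Foxc2, Snai3 and Gsc had no count, but 50.7% of the Prrx1 span overlaps other genes. In the corepressors through which Snail and ZEB proteins act, 9 of 9 reached 5 CPM with a median of -0.17. Hdac2, a histone deacetylase, stood at 282 and 284 CPM, and Ctbp1, a corepressor that binds ZEB proteins, at 176 and 156 CPM. Ezh2 was at 99.1 and 52.99 CPM (-0.89), lower in each lettered set but within 2-fold when pooled. Only Ajuba, a LIM protein that binds Snail, passed 2-fold with 1 sign, at 104 and 27.4 CPM (-1.89).

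**Figure D5:**
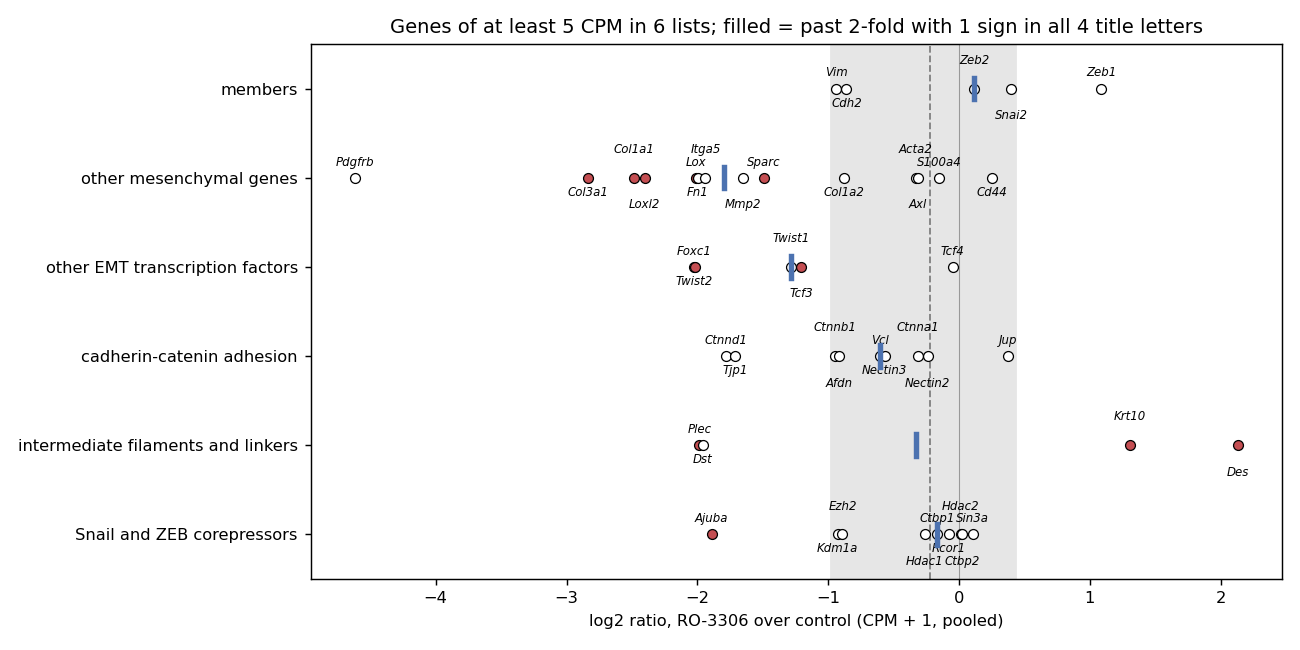
Log2 ratio of RO-3306 over control (CPM + 1, pooled) for genes of at least 5 CPM in 6 lists, with list medians as blue bars, the all-gene median of -0.22 as a dashed line and the all-gene quartiles in grey. Filled points differ by 2-fold or more with 1 sign in all 4 title letters: 5 other mesenchymal genes, Twist2, Tcf3, Plec and Ajuba on the lower side, Des and Krt10 on the higher side, and none of the 10 identity genes.

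The partners of the cadherins and of vimentin were split. Of 12 genes of cadherin-catenin adhesion, 9 reached 5 CPM, none passed 2-fold with 1 sign, and the median was -0.60. Ctnnb1, beta-catenin, was at 201 and 104 CPM (-0.95), and Ctnnd1, p120-catenin, at 117 and 33.3 CPM (-1.78). Ctnna1 was nearer to control, at 64.8 and 51.9 CPM (-0.31). Of 12 other intermediate filament and linker genes, 4 reached 5 CPM. Plec, the plectin that links vimentin to other structures, was lower, at 97.5 and 23.9 CPM (-1.99). Des, the muscle filament protein desmin, was higher, at 21.6 and 98.4 CPM (2.14), with a count in 6 of 29 control and 34 of 37 RO-3306 cells. Krt10, a keratin of differentiated epidermis, was also higher, at 30.05 and 75.8 CPM (1.31), in 13 of 29 and 34 of 37 cells. Des and Krt10 thus lay on the other side of 0 from Vim. The sum of the 12 was 226 and 225 CPM.

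Markers of other cell types that the line could resemble were measured beside these genes. Of 8 fibroblast genes, 5 of them also in the mesenchymal list (Col1a1, Col1a2, Col3a1, Pdgfrb, Thy1), 6 reached 5 CPM. Their sum per cell ran from 255 to 5009 CPM in control and from 52.5 to 6298 CPM in RO-3306, and Lum and Thy1 were at 0. Of these 6, 5 were lower in RO-3306, with a median log2 ratio of -2.02, beside 58.95% of all genes lower and an all-gene median of -0.22. Pdgfrb, a receptor of platelet-derived growth factor, was at 35.8 and 0.496 CPM, its relative Pdgfra at 25.9 and 8.17 CPM, and Dcn, a proteoglycan, at 834 and 873 CPM. Of 7 alveolar type I genes, 4 reached 5 CPM, led by Cav1 at 1111 and 963 CPM, and Ager and Aqp5 were at 0. Pdpn was at 50.9 and 37.8 CPM, and Emp2 at 10.7 and 18.8 CPM. The whole Aqp5 span (100%) overlaps another gene, so its 0 does not show absence. Of 4 mesothelial genes, 2 reached 5 CPM: Wt1 at 39.4 and 14.5 CPM and Upk3b at 42.1 and 26.5 CPM, with sums per cell of 0 to 295 and 0 to 621 CPM. Of 8 macrophage genes, 2 reached 5 CPM and went opposite ways. Cd68, a lysosomal membrane protein, was at 0.0757 and 320 CPM, and Lyz2 at 29.5 and 15.8 CPM. Ptprc and Csf1r were at 0 and 1.70 CPM in control and 0.129 and 0 CPM in RO-3306. The 5 endothelial genes summed to 0.619 and 0.149 CPM. The 11 alveolar type II genes summed to 23.5 and 27.7 CPM, mostly from Lpcat1 (13.5 and 18.7 CPM) and Abca3 (9.38 and 5.21 CPM), with Etv5 at 0.321 and 3.60 CPM. The part of any of these in the Vim and Snai2 differences was not tested.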

How the data were processed

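Each library is 1 cell, and the authors deposited 1 file per cell with expected counts for 40202 genes. Per the file headers, the authors counted reads with featureCounts 2.0.3 over whole GRCm39 RefSeq gene spans, introns included, and shared reads of several placements out as fractions, with no strand or overlap option. By the tool's defaults, reads over more than 1 gene were not counted and strand was ignored. FastQC and STAR are named in the submitters' processing notes, and their versions and settings are not given in the sources used here. There are no molecular identifiers, so counts hold PCR copies and intervals cover counting error only.

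Cells with at least 50000 counts and 1000 genes were kept. Counts were pooled per group and scaled to a total of 1000000 (CPM). A pseudocount of 1 CPM entered log2 ratios. Exact Poisson and Clopper-Pearson intervals are at the 95% level, limits for a count of 0 rest on 3 counts, and fractional counts were rounded for intervals, thinning and scaling. No 2 kept libraries were identical, and no doublet caller was run on singly sorted cells. mRNA lengths are those of the longest protein-coding GENCODE M21 transcript, found for 97.2% of tested genes. Steps were tested on simulated data. Alternatives, with edgeR 4.0.16 and DESeq2 1.42.0 factors among them, are given in the closing section. Python 3.11.15 and R 4.3.3 were used.

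The 10 genes and all lists were chosen with earlier results of these data known. The text names all 10, the 3 highest genes of each list plus up to 4 more past 2-fold with 1 sign in the 4 sets, and for likeness to Vim the 3 highest mean Spearman correlations. For likeness, a gene needed a count in at least 50% of thinned cells of both groups, which among the 10 held for Vim only. Other named genes were chosen after their values were seen.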

Additional observations from a re-analysis of the deposited data

Results flagged for a closer look

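In libraries left out for few counts or genes, 2 of the genes, Cdh1 and Cdh2, were flagged for their control levels. Over the 19 control libraries left out, Cdh1 came to 821 CPM (727 to 923), against 0.479 CPM in kept control cells and 2.58 CPM in the 11 RO-3306 libraries left out. All 280 of these counts lie in 1 library, control C10, which had 16270 counts and 764 genes. Cdh2 came to 221 CPM (176 to 279) there, against 54.9 CPM in kept control cells and 2.15 CPM in RO-3306 libraries left out, and 75 of its 75.5 counts lie in control D6, with 37029 counts and 334 genes. Neither library had a count of Vim, which every kept cell had. Over the libraries left out, Vim came to 536 CPM (461 to 620) in control and 661 CPM (615 to 709) in RO-3306. That order is opposite to the one in kept cells, and 171 of the 183 control counts lie in control D3. With no minimum on libraries the Cdh1 log2 ratio was -2.20.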

How the results depend on the processing

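Over 20 results and 231 alternative values, 150 stayed within the spread set for each result and 81 moved beyond it; no called direction reversed. The Zeb2 log2 ratio, which was not called, changed sign, from 0.12 to -0.73 without title letter D. With DESeq2 factors the log2 ratios were -0.71 for Vim, -0.63 for Cdh2, 0.62 for the 4 repressors summed and -1.57 for the median of the other mesenchymal genes, and with TMM factors -0.73, -0.65, 0.60 and -1.59. These factors shifted the median of all genes by 0.23 and 0.21. The mean over cells gave -0.89 for Vim, -1.28 for Cdh2, 0.60 for the repressors and -1.27 for the mesenchymal median, and thinned counts gave -0.87 for Vim, -1.39 for Cdh2 and -1.53 for that median. The length correction, added after the data had been seen, gave -0.75, -0.25 and -1.31 for Vim, Cdh2 and that median, which was -1.57 with no CPM minimum and -1.59 with a pseudocount of 5. Leaving out each title letter in turn gave -1.16 (without B) to -0.75 (without C) for Vim, -1.55 (B) to -0.46 (D) for Cdh2, 0.071 (D) to 0.55 (A) for the repressors and -1.90 (D) to -1.56 (C) for the median. The share of cells with an epithelial count became 13.8% of control and 5.41% of RO-3306 cells when 5 counts were asked for, and 14.7% of RO-3306 cells at equal depth. Added after the data had been seen, the share of cells with Snai2 ran from 41.7% to 62.5% in control and from 70.8% to 94.1% in RO-3306 over 9 settings. The share of RO-3306 cells above the control median of Vim ran from 2.70% to 22.9%, the last with no minimum on libraries. Weighted by cell, Zeb1 stood at 2.66 and Zeb2 at 1.52. Cell A11 of RO-3306 weighs heavily in both, at 867.8 and 1407 CPM against group means over cells of 38.3 and 60.95 CPM. Where a value moved, the cause was not tested. No paired analysis was possible because each treatment is 1 sample of cells and no test was run. The counts of Epcam and Krt8 came from at most 1 cell of a group, Krt18 had none, and the Cdh1 ratio rests on few counts.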

Other observations

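Msln, which encodes the mesothelial surface protein mesothelin, had no count in the 29 control cells and 9.81 CPM over 13 of 37 RO-3306 cells, with counts in each lettered set. Its mean lay just under 5 CPM, so it is not among the genes counted past 2-fold, and a count of 0 allows up to 0.0454 CPM in control. The 2 mesothelial genes that reached 5 CPM, Wt1 and Upk3b, went the other way and were lower in RO-3306 when pooled. Grhl2, an epithelial transcription factor that opposes Zeb1, had counts in 4 of 29 control and 9 of 37 RO-3306 cells, at 0.379 and 1.97 CPM. At equal depth Grhl2 was in 2 of 25 and 4 of 34 cells, and the low genes of its list went both ways. Msln and Grhl2 were singled out after their values were seen.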
